A study of Mus musculus with 4 samples.

Results

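The genes described here are the ubiquitin ligase of histone H2B, its adaptor, its conjugating enzymes and the enzymes that take the ubiquitin off again. They were chosen by name, as the array probes annotated to Rnf20, Rnf40, Wac, Ube2a, Ube2b, Usp12, Usp46, Usp22, Usp44 or Usp3. Of these 10 genes 9 had a probe with values on all 4 arrays, among 8676 named genes with such values in the whole series, and Usp44 was not measured here. The 9 genes had 16 probes, of which 15 had a value on every array.

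RNA came from RIF-1, a mouse tumour line that grew out of a fibrosarcoma. Bre1a (gene Rnf20) or Bre1b (gene Rnf40) had been knocked down by RNA interference. On each two-colour array Cy5-labelled RNA of a knockdown was hybridised together with Cy3-labelled RNA of a control, and the control was either cells with no knockdown or cells given a mock knockdown against GFP. Each knockdown was set once against each control, which gives 2 arrays per knockdown and 4 in all. All cells compared were RIF-1 cells, and the labels name neither the interfering RNAs nor any separate cultures, so p-values measure only spread among these arrays. The main model holds a term for the control, which takes up the mean gap between the 2 arrays of a knockdown. What is left is how far that gap differed between the knockdowns. The SDs printed below are therefore not the spread behind the main p-values. Cy5 was on the knockdown throughout, so a dye bias of a gene and its response to a knockdown cannot be told apart. The image addresses in the labels place the arrays of each knockdown in a folder of their own, and that split and the knockdown cannot be told apart either. Every value below is a log2 ratio of knockdown over control unless it is called a difference. Such ratios carry no level, so genes are not ranked by abundance, and a lower ratio in bulk RNA does not separate fewer expressing cells from less RNA per cell. For the same reason the fibroblast origin cannot be checked by level. Of 8 mesenchymal markers 7 were measured. Of these S100a4 sat on all 4 arrays at the array's most repeated value, which 702 to 843 spots per array shared. What that value stands for was not tested. After Bre1a knockdown Col3a1 (-0.93), Pdgfrb (-0.86) and Fn1 (-0.60) were called lower and Col1a1 (0.48) higher, and after Bre1b knockdown 1 was called lower, Pdgfrb (-0.59). Of 5 epithelial markers 3 were measured. Krt8 (-1.25) and Krt18 (-1.21) were called lower after Bre1a knockdown, and Krt8 (-0.71) and Epcam (-0.39) after Bre1b knockdown. On the Bre1a arrays Krt8 read -0.47 against no knockdown and -2.035 against mock. Epcam read -0.24 and 0.61 there, a mean of 0.18 without a call. On the Bre1b arrays Krt8 read 0.20 against no knockdown and -1.62 against mock, and Epcam read -0.76 and -0.01. Krt8 and Epcam were also called between the controls, mock minus no knockdown, at 1.69 and -0.80 (limma adjusted p = 0.0475 for each). Of 4 leukocyte markers 0 were measured. The part of these markers in the values below was not tested.

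Rnf20 and Rnf40 proteins pair into the ligase that places a single ubiquitin on the tail of histone H2B in transcribed genes. The conjugating enzymes Ube2a and Ube2b, mammalian counterparts of yeast Rad6, pass the ubiquitin on, and Wac, studied mostly in human cells, links the ligase to RNA polymerase II. Usp22, in the SAGA complex, and Usp12, Usp46, Usp44 and Usp3 are deubiquitinases for which H2B, H2A or both have been reported as substrates.

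Promoters were read from the RefSeq table of build GRCm38.p6 with the entries of 1 chromosome left out, each as 250 bases before to 50 after the start. Those of 7 of the 10 genes were found there, so a gene not found may still have an entry. The promoters of Rnf20, Rnf40, Usp12 and Usp46 are shown because these 4 genes had the called differences between the knockdowns. Capitals mark matches on either strand to the GC box GGGCGG, the CCAAT box CCAAT, the TATA box TATAAA, the E-box CACGTG and the CRE TGACGTCA. Rnf40 has a further start in the table and is shown with the upstream one.
Rnf20, chr4:49638375-49638674, plus strand: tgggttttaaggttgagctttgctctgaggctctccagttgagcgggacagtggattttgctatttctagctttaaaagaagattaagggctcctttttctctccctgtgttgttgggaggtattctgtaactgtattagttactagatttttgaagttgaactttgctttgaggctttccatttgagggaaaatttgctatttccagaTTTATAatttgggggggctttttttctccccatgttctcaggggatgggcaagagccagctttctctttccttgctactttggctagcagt
Rnf40, chr7:127588448-127588747, plus strand: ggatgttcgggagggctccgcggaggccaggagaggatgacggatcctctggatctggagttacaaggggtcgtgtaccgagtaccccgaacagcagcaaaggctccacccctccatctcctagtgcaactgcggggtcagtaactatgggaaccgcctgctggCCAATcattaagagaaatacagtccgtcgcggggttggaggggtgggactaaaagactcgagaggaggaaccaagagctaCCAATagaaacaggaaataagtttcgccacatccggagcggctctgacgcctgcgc
Usp12, chr5:146794907-146795206, minus strand: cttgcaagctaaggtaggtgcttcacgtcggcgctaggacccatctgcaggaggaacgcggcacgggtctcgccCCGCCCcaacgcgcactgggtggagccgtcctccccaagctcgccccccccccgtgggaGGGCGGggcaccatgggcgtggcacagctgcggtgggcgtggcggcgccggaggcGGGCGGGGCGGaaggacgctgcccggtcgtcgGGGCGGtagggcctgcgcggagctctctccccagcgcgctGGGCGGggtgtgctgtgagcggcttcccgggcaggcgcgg
Usp46, chr5:74068362-74068661, minus strand: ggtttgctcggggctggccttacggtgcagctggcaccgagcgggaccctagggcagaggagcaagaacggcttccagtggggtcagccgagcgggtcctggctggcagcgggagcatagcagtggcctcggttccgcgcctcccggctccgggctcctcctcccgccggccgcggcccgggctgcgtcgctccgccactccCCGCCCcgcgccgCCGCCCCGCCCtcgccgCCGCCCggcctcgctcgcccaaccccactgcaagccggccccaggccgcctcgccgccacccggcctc
The paralogs Usp12 and Usp46 both had GC-rich starts, with 75.7% and 78.0% G or C and 37 and 38 CG dinucleotides. The medians over the 32851 promoters read were 52.7% and 7. Usp12 held 6 GC boxes and Usp46 held 4, in each case with a pair that overlaps by 1 base. Of the promoters read 35.7% held at least 1 and 19.5% at least 2. The Rnf40 window held 2 CCAAT boxes. Of the promoters read 37.4% held at least 1 of these and 11.7% at least 2. The Rnf20 window was 42.0% G or C with 1 CG dinucleotide, and its only match was 1 TATA box on the minus strand of the gene, a motif that 13.6% of promoters held. E-box and CRE, held by 7.15% and 1.79% of promoters, had no match in these 4 windows. These matches describe the letters only.

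**Figure D1:**
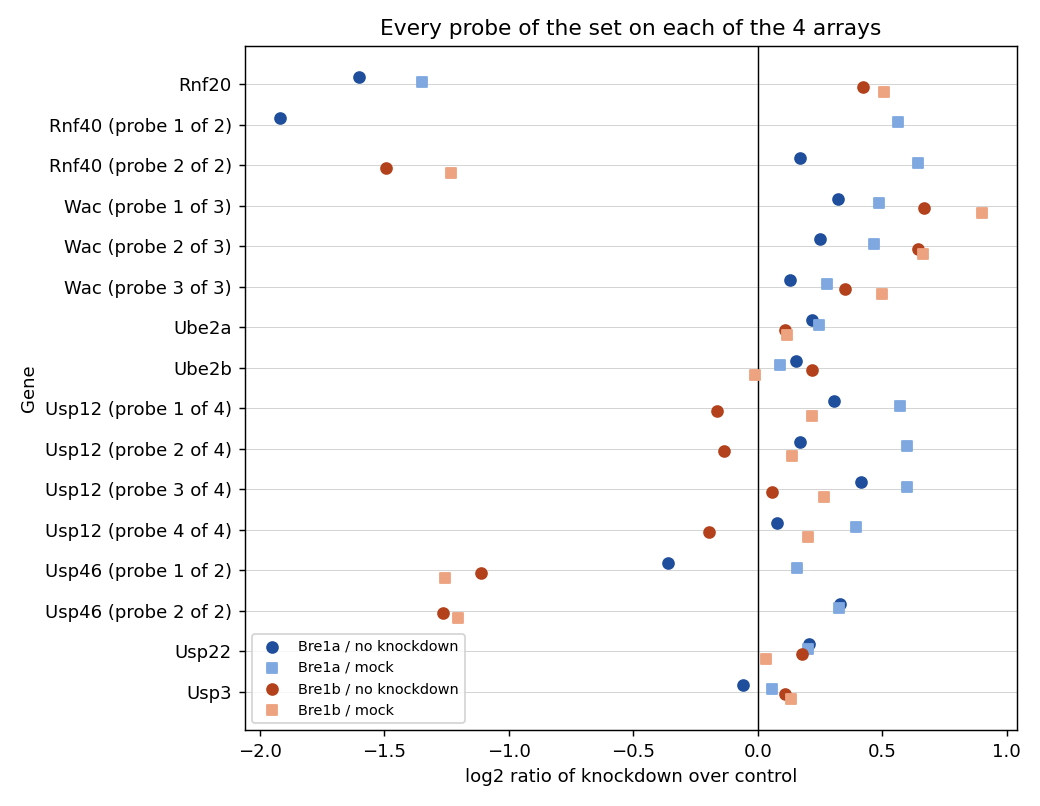
Log2 ratio of knockdown over control (x axis) for each of the 16 probes (y axis) on the 4 arrays, blue for Bre1a and red for Bre1b, circles against no knockdown and squares against mock. Rnf20 stands apart on the Bre1a arrays, while 1 Rnf40 probe and both Usp46 probes stand apart on the Bre1b arrays. The other Rnf40 probe has no Bre1b values and holds the lowest reading plotted, -1.92 for Bre1a against no knockdown.

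The targeted genes were read first. Rnf20 RNA gave -1.60 against no knockdown and -1.35 against mock on the Bre1a arrays, and 0.42 and 0.51 on the Bre1b arrays. The ranges of the knockdowns did not overlap. Its mean after Bre1a knockdown was -1.48 ± 0.18 (SD, n = 2), or 35.9% of control, with a limma adjusted p of 0.0212 over all genes, and it was the 127th lowest of 8676 genes on these arrays. Rnf40, on its only probe with values on all 4 arrays, gave -1.49 and -1.23 on the Bre1b arrays. On the Bre1a arrays that probe gave 0.17 and 0.65, again without overlap. A further Rnf40 probe, measured on the Bre1a arrays only, is given below. On the probe with values on all 4 arrays, the Rnf40 mean after Bre1b knockdown was -1.36 ± 0.18 (SD, n = 2). That is 38.9% of control (limma adjusted p = 0.00944), the 270th lowest of 8676 genes.

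Each ligase gene was called higher when the other was knocked down, Rnf40 on 1 of its 2 probes. Rnf20 was at 0.47 ± 0.06 (SD, n = 2) on the Bre1b arrays (95% interval 0.29 to 0.65, limma adjusted p = 0.0152), which put it at 138% of control. Rnf40 was at 0.41 ± 0.34 (SD, n = 2) on the Bre1a arrays (95% interval 0.20 to 0.62, limma adjusted p = 0.0349), at 133% of control. The Rnf40 rise was uneven between the controls, 0.17 against no knockdown and 0.65 against mock, whereas that of Rnf20 was 0.42 and 0.51. A second Rnf40 probe had values on the Bre1a arrays only, -1.92 against no knockdown and 0.56 against mock. When it was averaged in, an alternative chosen after seeing the data, Rnf40 after Bre1a knockdown came to -0.14 (limma adjusted p = 0.715), so this call rests on the other probe. Rnf20 had 1 probe. Changes of this size were common. Of all tested genes 67.3% had a smaller mean in size than Rnf20 after Bre1b knockdown, and 77.0% than Rnf40 after Bre1a knockdown. Both calls ended without the control term (limma adjusted p = 0.0728 for Rnf20 and 0.236 for Rnf40). They also ended with arrays scaled to 1 spread (0.137 and 0.062).

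The adaptor Wac rose after both knockdowns. Its mean over 3 probes was 0.23 and 0.41 on the Bre1a arrays and 0.55 and 0.69 on the Bre1b arrays, against no knockdown and mock in that order. All 12 probe readings were above 0, and the Bre1b arrays were the higher ones. Wac came to 0.32 ± 0.13 after Bre1a knockdown (SD, n = 2, limma adjusted p = 0.0273) and to 0.62 ± 0.10 after Bre1b knockdown (limma adjusted p = 0.00956). On a linear scale these are 125% and 154% of control. The difference, Bre1a minus Bre1b, was -0.30 (95% interval -0.48 to -0.12) and missed the threshold (limma adjusted p = 0.0542). Tested one by one, each probe passed for Bre1b (limma adjusted p = 0.0111, 0.0149 and 0.0154), and for Bre1a 2 probes passed (0.0306 and 0.0464) and the third had 0.0571.

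The conjugating enzymes moved little. Ube2a gave 0.22 and 0.25 on the Bre1a arrays and 0.11 and 0.12 on the Bre1b arrays. It rose after Bre1a knockdown, by 0.23 ± 0.02 (SD, n = 2, limma adjusted p = 0.0365), and its 0.11 ± 0.01 after Bre1b knockdown did not pass (limma adjusted p = 0.0895). The knockdowns were not shown to differ in Ube2a, with a difference of 0.12 (95% interval -0.06 to 0.30, limma adjusted p = 0.186). Its paralog Ube2b gave 0.15 and 0.09 for Bre1a and 0.22 and -0.01 for Bre1b, so that both ranges overlapped. Means of 0.12 ± 0.05 and 0.10 ± 0.16 did not pass (limma adjusted p = 0.165 and 0.188). Ube2a and Ube2b each rested on 1 probe, and the Ube2a value of 0.11 against no knockdown sat at the value that repeats on many spots of that array.

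Usp46 was the deubiquitinase with the largest change in the set. On the Bre1b arrays its 2 probes gave -1.11 and -1.27 against no knockdown and -1.26 and -1.21 against mock, and the probes lay within 0.15 of each other. On the Bre1a arrays they gave -0.36 and 0.33 against no knockdown and 0.16 and 0.33 against mock. All 4 readings for Bre1b lay below all 4 for Bre1a. The gene fell to -1.21 ± 0.03 after Bre1b knockdown (SD, n = 2, 95% interval -1.47 to -0.95, limma adjusted p = 0.00975), or 43.2% of control, close to the 38.9% of the targeted Rnf40 itself. After Bre1a knockdown it was at 0.11 ± 0.18 (limma adjusted p = 0.303), and there the probes parted by 0.69 on the array against no knockdown. Tested one by one for Bre1a, the probes had means of -0.10 and 0.33 (limma adjusted p = 0.621 and 0.0362). The difference between the knockdowns was 1.32 (95% interval 0.95 to 1.69, limma adjusted p = 0.0373), and it was 1.17 on the arrays with no knockdown as control and 1.47 on those with mock. Of all tested genes 94.8% had a smaller mean in size after Bre1b knockdown, against 96.0% for Rnf40.

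Usp12, the close paralog of Usp46, went another way. Its mean over 4 probes was 0.24 and 0.54 on the Bre1a arrays and -0.11 and 0.21 on the Bre1b arrays. On all 4 probes the Bre1a value exceeded the Bre1b value against the same control. For 1 probe the Bre1a value against no knockdown, 0.08, sat at the repeated value of its array. Tested alone for Bre1a, that probe did not pass (limma adjusted p = 0.0525), while the others did (0.0315, 0.0376 and 0.0252). Usp12 rose by 0.39 ± 0.21 after Bre1a knockdown (SD, n = 2, limma adjusted p = 0.0239), to 131% of control, and was at 0.05 ± 0.22 after Bre1b knockdown (limma adjusted p = 0.328). The difference of 0.34 between the knockdowns (95% interval 0.17 to 0.52) was just past the threshold (limma adjusted p = 0.0466), and it was 0.35 within the no knockdown arrays and 0.34 within the mock arrays. With arrays centred on their medians its adjusted p was 0.055.

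Usp22 and Usp3 had no call. Usp22, the SAGA deubiquitinase, gave 0.21 and 0.20 on the Bre1a arrays and 0.18 and 0.04 on the Bre1b arrays, with means of 0.20 ± 0.00 and 0.11 ± 0.10 (SD, n = 2, limma adjusted p = 0.0636 and 0.155). Usp3 gave -0.06 and 0.06 for Bre1a and 0.11 and 0.13 for Bre1b (limma adjusted p = 0.986 and 0.101). Their differences between the knockdowns had 95% intervals of -0.13 to 0.33 for Usp22 and -0.33 to 0.08 for Usp3. Each had 1 probe, and the Usp3 value of 0.11 also sat at the repeated value of its array.

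**Figure D2:**
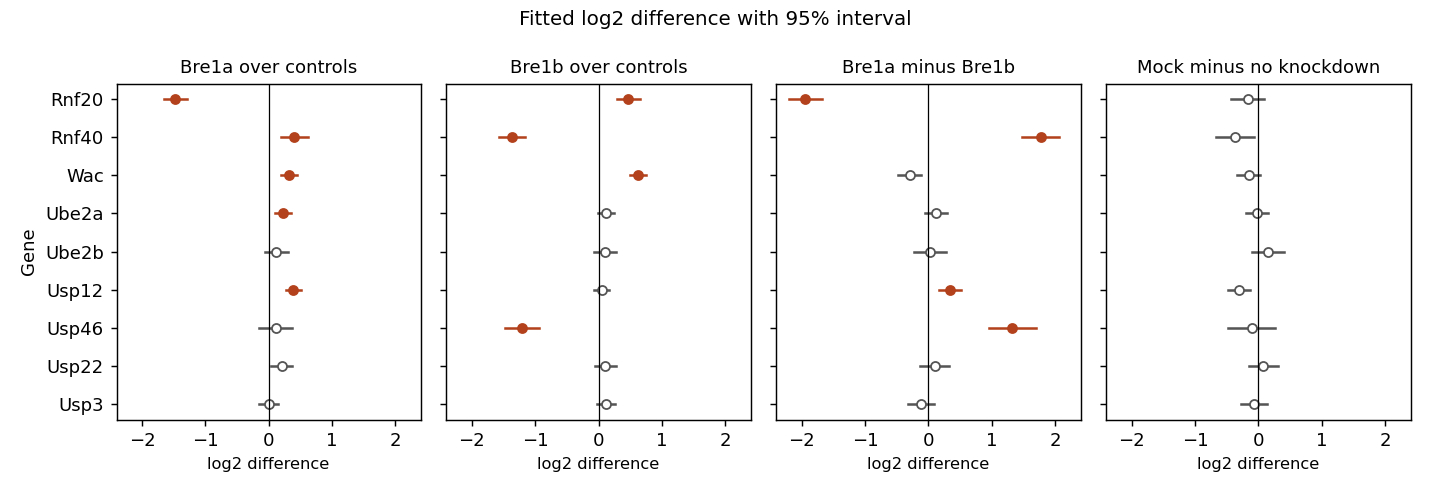
Fitted log2 difference (x axis, points) with its 95% interval (lines) for the 9 measured genes (y axis) in the 4 comparisons, filled red where the limma adjusted p over all genes was under 0.05. Rnf20, Rnf40, Usp12 and Usp46 are filled in the comparison of the knockdowns, and no gene is filled in the comparison of the controls.

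Counted over the set, 4 of the 9 measured genes rose and 1 fell after Bre1a knockdown, which is 55.6% called in either direction. Of all 8676 genes 40.9% were called there, 21.1% higher and 19.9% lower. After Bre1b knockdown 2 rose and 2 fell, which is 44.4% of the set. Of all genes 60.4% were called there, 32.3% higher and 28.2% lower. Between the knockdowns 3 of the 9 were higher with Bre1a and 1 was lower, which is 44.4% of the set. Of all genes 24.9% were called there, 11.7% higher and 13.2% lower. The targeted genes Rnf20 and Rnf40 are among the called genes in each of these comparisons. With so small a set these shares say nothing about the set. The set's median was 0.20 for Bre1a and 0.11 for Bre1b, and the medians of all genes were 0.03 and 0.02. Of the 9 genes 6 were above 0 on both Bre1a arrays, as were 37.7% of all genes, and 5 on both Bre1b arrays, as were 41.5%.

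The calls depend on a term for the control in the model. Without it, which is the fit without the replicate number as a block, 0 of the 9 genes were called for Bre1a (3 at an unadjusted p under 0.05) beside 0.0231% of all genes, and 1 was called for Bre1b beside 1.87% of all genes. That gene was Usp46, with a limma adjusted p of 0.043, while Rnf40 had 0.052, Wac 0.0593 and Rnf20 0.0728. For Bre1a the lowest value in that fit was 0.0577, for Rnf20. Between the knockdowns that fit called 0 genes of the set and 0% of all genes, with 3 of the set at an unadjusted p under 0.05 and limma adjusted p = 0.216 for Rnf20, Rnf40 and Usp46. With any 1 array left out, in a fit that must also drop the control term, at most 1 gene of the set was called for Bre1a and at most 2 for Bre1b. For Bre1a that was Rnf20, without the array against mock. For Bre1b these were Rnf40 and Usp46, without either Bre1a array, and without either Bre1b array there were 0. All 4 calls between the knockdowns also ended with arrays scaled to 1 spread (limma adjusted p from 0.122 to 0.128), with each probe tested on its own and with partly measured probes averaged in. With 1 probe per gene those of Usp46 and Usp12 ended (limma adjusted p = 0.0677 and 0.0545). Scaling kept Rnf20 and Usp12 for Bre1a and ended Rnf20 for Bre1b (limma adjusted p = 0.137), while Rnf40, Wac and Usp46 stayed called there.

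**Figure D3:**
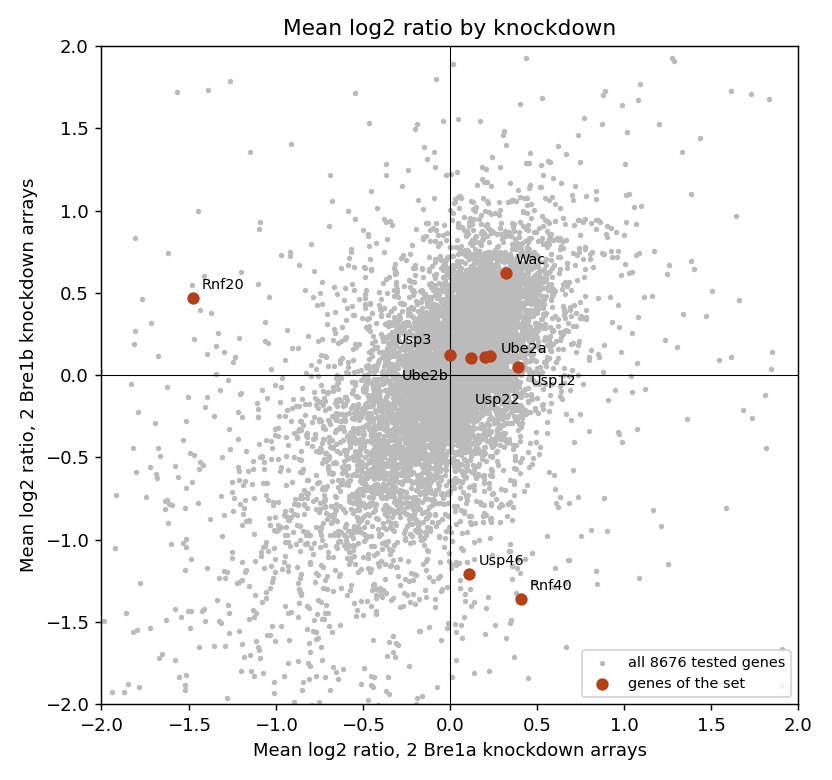
Mean log2 ratio over the 2 Bre1a arrays (x axis) against that over the 2 Bre1b arrays (y axis), grey for all 8676 tested genes and red for the 9 genes of the set, with 162 genes beyond 2 in size outside the axes. Rnf20 lies to the upper left, and Rnf40 and Usp46 lie together at the bottom, right of 0.

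The controls themselves were compared as mock minus no knockdown, a difference that each knockdown estimates once. No gene of the set was called with limma (2 at an unadjusted p under 0.05), beside 13.4% of all genes. Those 2 were Rnf40, with differences of -0.48 from the Bre1a arrays and -0.26 from the Bre1b arrays, and Usp12, with -0.30 and -0.32. Their fitted values were -0.37 and -0.31 (limma adjusted p = 0.0842 and 0.06). For Usp12 this is about the size of its change after Bre1a knockdown. For Usp46 the estimates were -0.26 and 0.04, of opposite sign. Wac had -0.18 and -0.14 and Rnf20 -0.26 and -0.09, while Ube2b had 0.07 and 0.23.

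Related genes gave a setting for these values, and most of their lists were too thinly measured for more than single values. Of the SAGA deubiquitinase module and the Usp22 paralogs 2 of 8 were measured, Atxn7 and Atxn7l2, with no call for either knockdown. Atxn7 read 1.37 against no knockdown and -0.26 against mock on the Bre1b arrays, so its arrays differed in sign. Of the Usp12 and Usp46 cofactors 3 of 4 were measured. Wdr48, the activating partner of both enzymes, stayed between -0.07 and 0.04 on the 4 arrays, Wdr20 had no call, and Dmwd rose by 0.21 after Bre1b knockdown (limma adjusted p = 0.0303). None of the 3 had a called fall on the Bre1b arrays, where Usp46 fell.

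Other enzymes reported to act on ubiquitinated H2B included 4 measured genes of 7. Usp15 rose after both knockdowns, by 0.36 and 0.40 (limma adjusted p = 0.0253 and 0.0123), and the Bre1a and Bre1b ranges, 0.22 to 0.50 and 0.24 to 0.55, overlapped. Usp21 and Usp28 fell after Bre1b knockdown, to -0.29 and -0.46, and Usp7 ranged from -0.77 to 0.63 without a call. Neither Rad18 nor Ubr1, ligases that also work with Ube2a or Ube2b, was called. Of the ubiquitin supply genes only Uba6, a ubiquitin-activating enzyme, was measured on all arrays, and its mean over 2 probes was called lower after both knockdowns, at -0.51 and -0.44 (limma adjusted p = 0.0233 and 0.0129). Its probes parted, with -0.79 and -0.24 after Bre1a knockdown and -0.96 and 0.08 after Bre1b knockdown, so the Bre1b value rests on 1 probe.

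The PAF1 complex, which recruits the ligase to elongating polymerase, was listed by 7 symbols, and 4 genes were measured under them. Paf1 and Wdr61 rose after Bre1a knockdown and all 4 rose after Bre1b knockdown, where 21.1% and 32.3% of all genes were called higher, and the list medians were 0.20 and 0.28. Cdc73 was the largest, at 0.57 ± 0.19 after Bre1b knockdown (SD, n = 2, limma adjusted p = 0.0122), with 0.44 and 0.70 on its arrays. Its 2 probes had means of 0.31 and 0.83 there, and with the first probe alone the call ended (limma adjusted p = 0.052). The Bre1a arrays gave -0.11 and 0.32 for Cdc73. The enzymes that add or remove ubiquitin on H2A had 14 measured genes of 15. After Bre1a knockdown 2 rose and 2 fell, and after Bre1b knockdown 6 rose and 1 fell, with medians of 0.01 and 0.27. That is 4 and 7 called of 14, beside 40.9% and 60.4% of all genes. Pcgf6, a subunit of a Polycomb ligase, was at 0.66 ± 0.27 after Bre1b knockdown (SD, n = 2, limma adjusted p = 0.00944), with 0.47 and 0.85 on its arrays, against -0.25 and 0.18 on the Bre1a arrays. It rested on 1 probe. Without the control term the Bre1b calls of Pcgf6 and Cdc73 ended (limma adjusted p = 0.0793 and 0.0842). Those of Uba6 for Bre1a and Bre1b ended there too (0.101 and 0.0663).

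**Figure D4:**
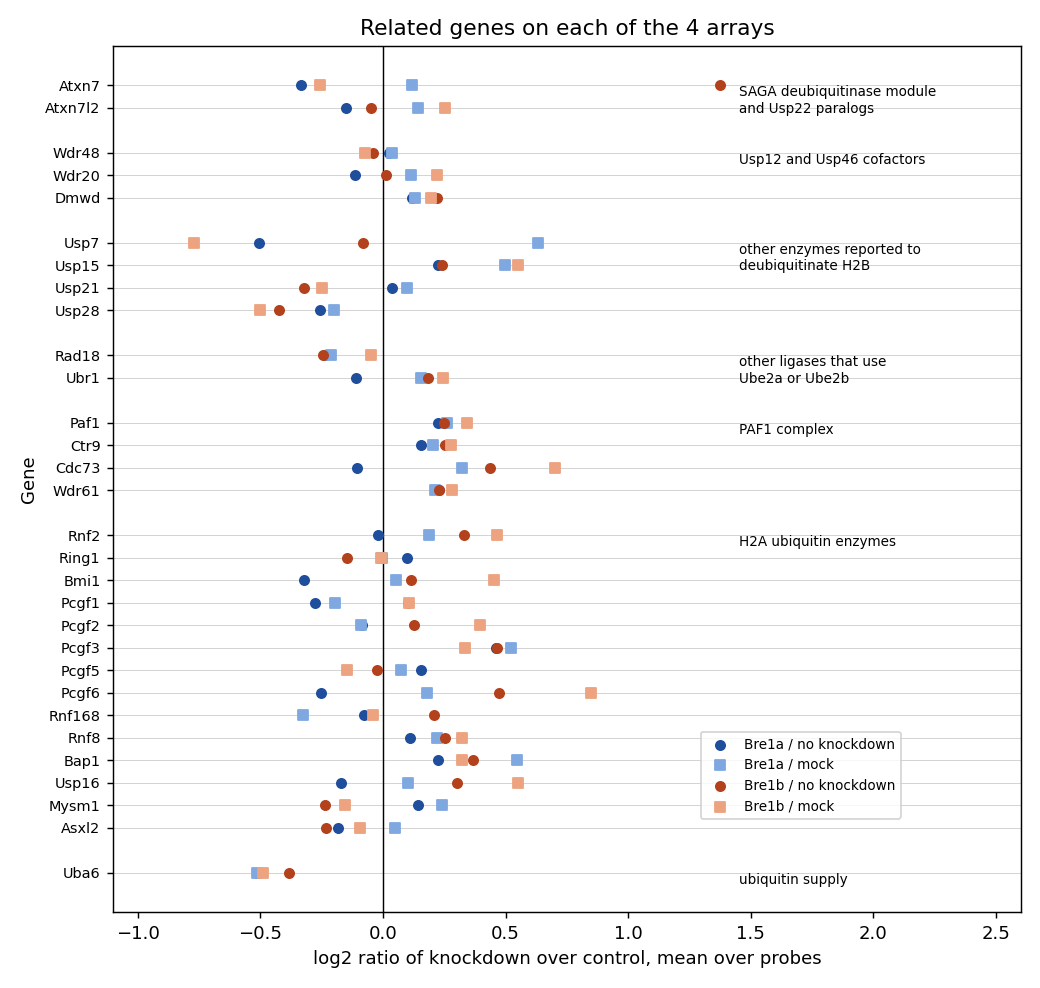
Log2 ratio of knockdown over control (x axis), averaged over probes, for 30 related genes (y axis, grouped by list) on the 4 arrays, with colours as for the probes of the set. Uba6 lies below 0 on all 4 arrays, Paf1, Ctr9 and Wdr61 lie above 0 on all 4, and Atxn7 and Usp7 are spread widely.

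The genes nearest to the targets over the 4 arrays were found by Euclidean distance of the log2 ratios. Nearest to Rnf20 were Mmp10, Tmem26 and Cldn12 at distances of 0.57, 0.58 and 0.66, where the median gene lay at 2.35. Mmp10, a matrix metalloproteinase, gave -1.26 and -0.95 for Bre1a and 0.39 and 0.72 for Bre1b. Nearest to Rnf40 were Pdk4, Hhex and Ccn3 at 0.39, 0.42 and 0.47, where the median gene lay at 2.17. Pdk4, a kinase that inhibits pyruvate dehydrogenase, gave 0.35 and 0.43 for Bre1a and -1.31 and -1.04 for Bre1b. With 4 arrays that share their knockdown and control RNA types, such likeness is a description of these values.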

How the data were processed

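Two-colour arrays of 4 samples were used, 2 per knockdown, grouped by the labels of the Cy5 channel. Values as deposited are log2 ratios, with the Cy5 channel over the Cy3 channel. The base was read from the values: per array, 33 to 63 spots lay 1 below the most repeated value, within 0.002, against 9 to 16 at shifted positions. How images were read, background was corrected and ratios were normalized was not given in the sources used here. Spots with a value numbered 19874 to 22255 of 38784 per array, array medians lay between -0.033 and 0.014, and the number of arrays limits the precision. The spread of the values differed between arrays. Against no knockdown and mock, the scaled median absolute deviation was 0.378 and 0.492 for Bre1a and 0.451 and 0.666 for Bre1b. The main fit left these spreads as they were. Of the values of the set, 3 of 62 sat within 0.002 of the repeated value of their array.

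Probes were named from GEO's platform annotation (22204 with 1 symbol, 0 with several, 16580 with none). Symbols were looked up by gene ID in a table of GRCm38.p6, and 0 changed. Named probes with 4 values, 12958 in all, were averaged into 8676 genes. The test was limma (version 3.58.1, R version 4.3.3), with Benjamini-Hochberg adjustment over all genes and a threshold of 0.05, two-sided. The design held 1 coefficient for each knockdown plus a control term, with 1 residual and 1.57 prior degrees of freedom. The replicate number in the titles marks the control, so this term is also the replicate block, and the fit without it has 2 residual degrees of freedom. The script was tested on simulated data. Alternatives covered centring, scaling, repeated values, probe choice, probes as the unit, partly measured genes, the control term and each array left out.

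Members and lists were chosen with earlier results of these data known. All members are named. Related genes are named by value if called with a mean of at least 0.5 in size, and further ones to describe their list, which were chosen after their values were seen.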

Additional observations from a re-analysis of the deposited data

Results flagged for a closer look

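The effect of the knockdown differed between Bre1a and Bre1b for 4 genes, by a test of the difference itself in the model over all 4 arrays. The log2 differences, Bre1a minus Bre1b, were -1.94 for Rnf20, 1.77 for Rnf40, 1.32 for Usp46 and 0.34 for Usp12 (limma adjusted p = 0.0372, 0.0372, 0.0373 and 0.0466), in a comparison that called 24.9% of all genes. All 4 calls ended without the control term (limma adjusted p from 0.216 to 0.455) and with arrays scaled to 1 spread (0.122 to 0.128). Rnf20 and Rnf40 are the knocked-down genes themselves. Each difference had 1 direction against either control: -2.03 and -1.86 for Rnf20, 1.66 and 1.88 for Rnf40, 1.17 and 1.47 for Usp46, and 0.35 and 0.34 for Usp12. The 2 Usp46 probes gave 1.08 and 1.56. The knockdowns' arrays lie in different image folders, so that split and the knockdown cannot be told apart. Groups held 2 arrays each, too few to look for a single array far from the others.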

How the results depend on the processing

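The directions and calls of the set were recomputed for its 9 genes in each comparison. Over all alternatives 292 values kept direction and side of the threshold, 77 lost their call, 1 gained one and 9 changed sign. With each probe tested, a gene took the mean of its probes and the lowest adjusted p among them, so 1 passing probe kept its call. The gained call, Usp46 after Bre1a knockdown, came from 1 of its 2 probes in this way. Of the lost calls most came without the control term or with 1 array left out, where fewer terms or arrays enter, and otherwise the cause was not tested.

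Without the control term, that is with no replicate block, the set had 0 calls for Bre1a, 1 for Bre1b and 0 between the knockdowns, and all genes had 2, 162 and 0 (limma, with 3 of the set and 1286 of all genes at an unadjusted p under 0.05 between the knockdowns). With arrays scaled to 1 spread, the set had 2 calls for Bre1a and 0 between the knockdowns, and all genes had 2058 for Bre1a, 3085 for Bre1b. There 0 of all genes were called between the knockdowns, as between the controls (2661 and 1987 at an unadjusted p under 0.05). With each probe tested, 6675 and 10553 probes were called for Bre1a and Bre1b, and 0 between the knockdowns, of the set as of all, and 0 between the controls (7863 and 7115 unadjusted). With partly measured probes averaged in, an alternative chosen after seeing the data, there were 0 calls between the knockdowns in the set and 0 over all genes, and 0 between the controls (3853 and 3546 unadjusted). With 1 probe per gene 2 genes of the set, Rnf20 and Rnf40, were called between the knockdowns beside 1450 of all genes, and Usp46 and Usp12 were not (adjusted p = 0.0677 and 0.0545). There 0 of all genes were called between the controls (3706 unadjusted). With values on at least 3 arrays it was 0 between the controls (4021 unadjusted).

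Leaving out 1 array removes the control term too. The set then had 0 to 1 calls for Bre1a, 0 to 2 for Bre1b and 0 to 1 between the knockdowns, and all genes had 7 to 131, 0 to 1142 and 0 to 70. The difference between the controls could not be fitted there, nor without the control term. Values that changed sign are given next, with those of Uba6, Cdc73 and Pcgf6, which are outside the set and not among the 9. Of them Rnf40 after Bre1a knockdown had been called, and it came to -0.14 with partly measured probes averaged in. The others had not been called. With 1 probe per gene Usp46 after Bre1a knockdown was at -0.10 and the difference between the knockdowns in Uba6 was 0.17. With arrays scaled to 1 spread the difference between the controls was 0.027 in Ube2a and -0.12 in Uba6. With 1 array left out, values after Bre1a knockdown ran from -0.0165 to 0.24 for Usp46, -0.06 to 0.058 for Usp3, -0.11 to 0.32 for Cdc73 and -0.25 to 0.18 for Pcgf6. Values after Bre1b knockdown ran from -0.012 to 0.22 for Ube2b and -0.11 to 0.21 for Usp12, and the difference between the knockdowns in Ube2b ran from -0.10 to 0.13.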
